A study of Homo sapiens with 24 samples.

Results

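The EGR genes (EGR1 to EGR4) and the NR4A genes (NR4A1 to NR4A3) encode transcription factors of the immediate early class, and their transcription was followed in a TT-seq series of a human colorectal cell line in which parts of the Integrator complex were degraded. The members were taken by gene symbol, and all 7 were among the 7223 genes that the deposited files list. EGR1, EGR3, NR4A1, NR4A2 and NR4A3 had a value in all 24 libraries. EGR2 had a value in 20 libraries and EGR4 in the 12 libraries of batch 2.

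The cells were DLD1, a colorectal adenocarcinoma line, in which an Integrator subunit carried a dTAG degron at its own gene, so that the small molecule dTAG13 sends the tagged protein to degradation. The INTS11-dTAG line tags the catalytic subunit of the RNA endonuclease, the INTS8-dTAG line tags a subunit that helps to hold the phosphatase PP2A, and the INTS8-dTAG_INTS8-N211del line (called N211del here) has the INTS8 knock-in and also makes the INTS8-N211del variant from an ectopic copy. TT-seq labels RNA for a short time and sequences what was made in it, so a value follows transcription more closely than the standing RNA. The series asks how the endonuclease and the phosphatase differ in their roles in transcription.

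In batch 1 each line was sampled after 3 h of dTAG13 and after 3 h of the vehicle DMSO, as 6 groups of 2 libraries. In batch 2 the INTS11 and N211del lines were sampled at 0, 1 and 3 h of dTAG13, also as 6 groups of 2 libraries. All groups carry a knock-in tag. Effects of dTAG13 itself cannot be told apart from loss of a subunit, because cells without a tag were not analysed here. No vehicle library of batch 2 was analysed here either, and loss of the tagged proteins is not measured by RNA. The labels call the duplicates biological and do not say whether a line is 1 clone, and with 2 libraries a group the p-values measure the spread between these libraries only. The deposited values, named FPKM in the file headers, are a signal per kilobase of gene, each a whole-number unit divided by a gene length that includes introns. The listed genes held 5485871 to 8084901 units in a library of batch 1 and 8664141 to 11205146 in batch 2. The lowest and highest of batch 1 were N211del DMSO replicate 2 and INTS8 dTAG13 replicate 1. Batch 1 values carry no factor per library, so such differences in depth may stand in its fold changes and shares of called genes. What part they play was not tested. Replicates correlated across genes at r = 0.996 to 0.997. In 6 of the 12 groups a chi-square test over genes did not tell the pair from sampling noise, and the calls of members that were lost when each such pair was averaged and counted as 1 sample are given beside them. Of 11 colorectal epithelial markers, 7 had a value in all 24 libraries (EPCAM, CDX2, CDH1, CDH17, KRT8, KRT18 and KRT19), with summed values of 2063 to 3530. Of the 11, 9 had a value in any library. LGALS4 reached at most 1.62 and had no value in the INTS11 libraries of batch 1. KRT20 was listed in batch 2 only and reached at most 0.126. Of 8 leukocyte and stromal markers 1 had a value in any library and 0 in all. Of the 7 epithelial markers tested after 3 h of dTAG13, 0 rose and 2 fell in the INTS11 line, 1 and 3 in the INTS8 line, and 2 and 2 in the N211del line, and their part in the results was not tested. Of all genes tested, 19.4%, 34.6% and 48.5% rose in these lines, in the same order. The shares that fell were 19.8%, 21.0% and 7.1%.

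Immediate early genes are transcribed within minutes of a growth factor, stress or hormone signal and need no new protein for it. EGR1 to EGR4 are zinc finger factors that bind GC-rich sites, and the EGR1 promoter is a textbook case of control by the MAP kinase pathway through serum response factor, which binds CArG boxes. NR4A1 (Nur77), NR4A2 (Nurr1) and NR4A3 (NOR1) are orphan nuclear receptors, textbook targets of cAMP signals acting through CREB at the cAMP response element. At such genes polymerase pauses shortly after the start, where Integrator can cleave the nascent RNA and its phosphatase arm opposes the kinases that release the polymerase.

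The promoters of EGR1, EGR2 and NR4A3 are shown because they carry the most matches to these elements among the 5 members searched in RefSeq's promoter table (GRCh38.p14). The members searched were EGR1, EGR2, EGR4, NR4A1 and NR4A3. NR4A2 had no entry there, and EGR3 was not searched. Each run holds the 250 bases before an annotated start, 5′ to 3′ on the gene's strand, at chr5:138465229-138465478 (plus strand) for EGR1, chr10:62816367-62816616 (minus strand) for EGR2 and chr9:99821635-99821884 (plus strand) for NR4A3. Capitals mark CArG boxes and, on either strand, the 5 letters TGACG that open the cAMP response element.
EGR1: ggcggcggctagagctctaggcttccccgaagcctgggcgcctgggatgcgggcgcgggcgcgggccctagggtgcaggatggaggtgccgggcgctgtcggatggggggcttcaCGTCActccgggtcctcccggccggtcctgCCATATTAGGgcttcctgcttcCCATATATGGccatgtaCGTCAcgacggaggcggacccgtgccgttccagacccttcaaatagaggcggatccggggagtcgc
EGR2: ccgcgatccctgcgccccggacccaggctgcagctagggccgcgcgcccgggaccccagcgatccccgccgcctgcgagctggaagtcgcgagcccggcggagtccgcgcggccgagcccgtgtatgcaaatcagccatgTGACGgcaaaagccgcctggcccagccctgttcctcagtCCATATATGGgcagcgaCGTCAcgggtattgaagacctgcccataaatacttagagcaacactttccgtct
NR4A3: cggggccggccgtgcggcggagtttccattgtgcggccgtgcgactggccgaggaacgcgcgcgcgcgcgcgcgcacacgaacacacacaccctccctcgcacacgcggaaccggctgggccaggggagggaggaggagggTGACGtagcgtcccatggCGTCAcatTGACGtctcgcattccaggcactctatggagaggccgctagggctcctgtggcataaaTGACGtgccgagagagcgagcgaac
The EGR1 window held 2 CArG boxes, beginning 105 and 83 bases before the start, and 2 TGACG matches, 135 and 66 bases before it. It also held 1 match to the EGR binding sequence GCGNGGGCG, 198 bases before the start, which is not capitalised. The EGR2 window held 1 CArG box, 71 bases before the start, between TGACG matches at 110 and 54 bases. The NR4A3 window held 4 TGACG matches, at 109, 91, 83 and 25 bases before the start, and no CArG box. Among all 35116 windows of that table a CArG box stood in 1.16%, TGACG in 21.2%, the full element TGACGTCA in 1.65% and GCGNGGGCG in 8.41%. The full element stood in none of the 8 windows of the 5 members searched. EGR4 (chromosome 2) had 2 TGACG matches, and the 2 NR4A1 windows (chromosome 12) and the other 2 EGR2 windows had no match to any of these sequences. Such matches describe letters in a window and do not show binding.

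After 3 h of dTAG13, set against 3 h of DMSO, EGR1 fell in all 3 lines while the other members with a tested value rose. The fall of EGR1 took its level to 0.487, 0.564 and 0.516 of the DMSO level in the INTS11, INTS8 and N211del lines, and NR4A2 rose 5.64-fold, 15.8-fold and 8.66-fold. In each line 4 of the 5 members tested in all 12 libraries were higher and 1 was lower. Of all 6579 genes tested, 39.1% were called in the INTS11 line (19.4% higher, 19.8% lower), 55.6% in the INTS8 line (34.6% higher, 21.0% lower) and 55.6% in the N211del line (48.5% higher, 7.1% lower). Calls are at an adjusted p under 0.05 from limma on log2(value + 0.1), with Benjamini-Hochberg adjustment, and every fold change below is on that scale. That EGR1 and NR4A2 go opposite ways was known when the members were chosen.

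EGR1 is the most studied of the family and is induced by growth factors through ERK. Its value was 37.4 and 39.7 in the INTS11 line after dTAG13, against 71.4 and 88.1 in DMSO. The treated INTS8 libraries had 39.0 and 39.2, against 60.1 and 80.0 in DMSO. The treated N211del libraries had 74.0 and 77.4, against 141 and 153 in DMSO. Both treated libraries lay below both vehicle libraries in each line, and the vehicle libraries of the INTS11 and INTS8 lines were the more spread. The log2 fold change was −1.04 ± 0.13 (SE) in the INTS11 line (limma adjusted p = 0.00029), −0.83 ± 0.13 in the INTS8 line (limma adjusted p = 0.00056) and −0.95 ± 0.13 in the N211del line (limma adjusted p = 0.00021). EGR1 in the INTS11 line ranked 4 from the bottom of the 6579 genes, in the N211del line 31 from the bottom and in the INTS8 line 104 from the bottom. These are bulk values, so fewer cells transcribing EGR1 and less EGR1 RNA per cell cannot be told apart.

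EGR2 and EGR3, close relatives of EGR1 that are often induced beside it, stood near the bottom of the measured range in DMSO and were higher after dTAG13. EGR3 was at 1.72 in both treated libraries of the INTS11 line, against 0.172 and 0.515 in DMSO. It was at 3.09 and 3.26 in the treated INTS8 libraries against 0.344 and 0.515 in DMSO, and at 3.09 and 2.233 in the treated N211del libraries against 0.859 and 0.687 in DMSO. The groups did not overlap in any line, but the DMSO values rest on 1 to 5 units per library. Summed over the pair of libraries, EGR3 had 20 units after dTAG13 against 4 in the INTS11 line (ratio 5, exact 95% interval 1.67 to 20.1), 37 against 5 in the INTS8 line (7.40, 2.90 to 24.1) and 31 against 9 in the N211del line (3.44, 1.60 to 8.23). These intervals cover counting error only and treat a unit as a count. The log2 fold changes of EGR3 were 2.15 ± 0.36, 2.65 ± 0.36 and 1.65 ± 0.36 in the INTS11, INTS8 and N211del lines (limma adjusted p = 0.0019, 0.00028 and 0.0044), and 1.03, 1.55 and 1.04 with a pseudocount of 1 in place of 0.1.

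EGR2 had no value in the INTS11 libraries of batch 1. It was at 2.07 and 2.30 in the treated INTS8 libraries, against 0.459 and 0.230 in DMSO, which is 19 units against 3 (ratio 6.33, exact 95% interval 1.86 to 33.4). The treated N211del libraries had 2.75 and 3.21, against 0.918 and 0.689 in DMSO, which is 26 units against 7 (3.71, 1.57 to 10.1). A further fit of batch 1 added the genes listed in the 8 libraries of these lines but not in all 12 (6697 genes tested; 55.3% were called in the INTS8 line, 34.8% higher, and 55.7% in the N211del line, 48.7% higher). There EGR2 was higher by 2.41 ± 0.23 (log2, SE) in the INTS8 line and by 1.78 ± 0.23 in the N211del line (limma adjusted p = 2.7e-06 and 3.8e-05), with its INTS11 values missing from the fit. The DMSO values rest on 1 to 4 units per library, and this fit was not repeated with another pseudocount.

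The NR4A genes rose in each line, least in the INTS11 line. NR4A2, known best from dopamine neurons and from prostaglandin signalling in colon tumours, had the largest fold change of the members. It was at 22.7 and 21.9 in the treated INTS11 libraries, against 3.87 in both DMSO libraries. It was at 55.4 and 62.1 in the treated INTS8 libraries, against 3.51 and 3.75 in DMSO. The treated N211del libraries had 37.9 and 39.1, against 4.23 and 4.48 in DMSO. The DMSO levels of the 3 lines lay between 3.51 and 4.48, while the treated levels of the lines did not overlap, with INTS8 highest and INTS11 lowest. The log2 fold changes were 2.497 ± 0.08, 3.98 ± 0.08 and 3.11 ± 0.08 in the INTS11, INTS8 and N211del lines (limma adjusted p = 2.1e-15, 8.8e-20 and 1.8e-17), which ranked NR4A2 8, 7 and 15 from the top of the 6579 genes.

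NR4A3, the longest of the members at 45037 bases by the recovered length, followed NR4A2 in the lines that tag INTS8. It was at 72.2 and 65.4 in the treated INTS8 libraries, against 6.68 and 7.86 in DMSO. It was at 32.6 and 34.0 in the treated N211del libraries, against 4.42 and 4.22 in DMSO, and at 13.2 and 14.4 in the treated INTS11 libraries, against 4.91 and 5.22 in DMSO. No treated library overlapped a DMSO library of its line, and NR4A3 was above NR4A2 per kilobase in the treated INTS8 libraries and below it in the treated INTS11 libraries. The log2 fold changes were 1.43 ± 0.09, 3.23 ± 0.09 and 2.92 ± 0.09 in the INTS11, INTS8 and N211del lines (limma adjusted p = 1.7e-10, 8.8e-18 and 1.3e-16).

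NR4A1, the member with a role in T cell receptor signalling and apoptosis, had the smallest rise. It was at 26.7 and 27.5 in the treated INTS8 libraries, against 12.03 and 11.5 in DMSO, and at 32.5 and 38.6 in the treated N211del libraries, against 17.5 and 17.7 in DMSO. The treated INTS11 libraries had 12.2 and 12.5, against 8.68 and 11.04 in DMSO. The gap in the INTS11 line was no wider than the spread between its DMSO libraries. The log2 fold changes were 1.19 ± 0.10 in the INTS8 line and 1.003 ± 0.10 in the N211del line (limma adjusted p = 2.5e-09 and 3.5e-08), and 0.33 ± 0.10 in the INTS11 line (limma adjusted p = 0.012). The INTS11 call was lost without DMSO replicate 1 (log2 fold change 0.16, limma adjusted p = 0.274) and without dTAG13 replicate 2 (0.31, adjusted p = 0.0572), and the value was 0.50 without DMSO replicate 2. With only the libraries of that contrast in the fit, with agreeing pairs averaged and with voom it was also lost (limma adjusted p = 0.0771, 0.0636 and 0.0699).

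**Figure D1:**
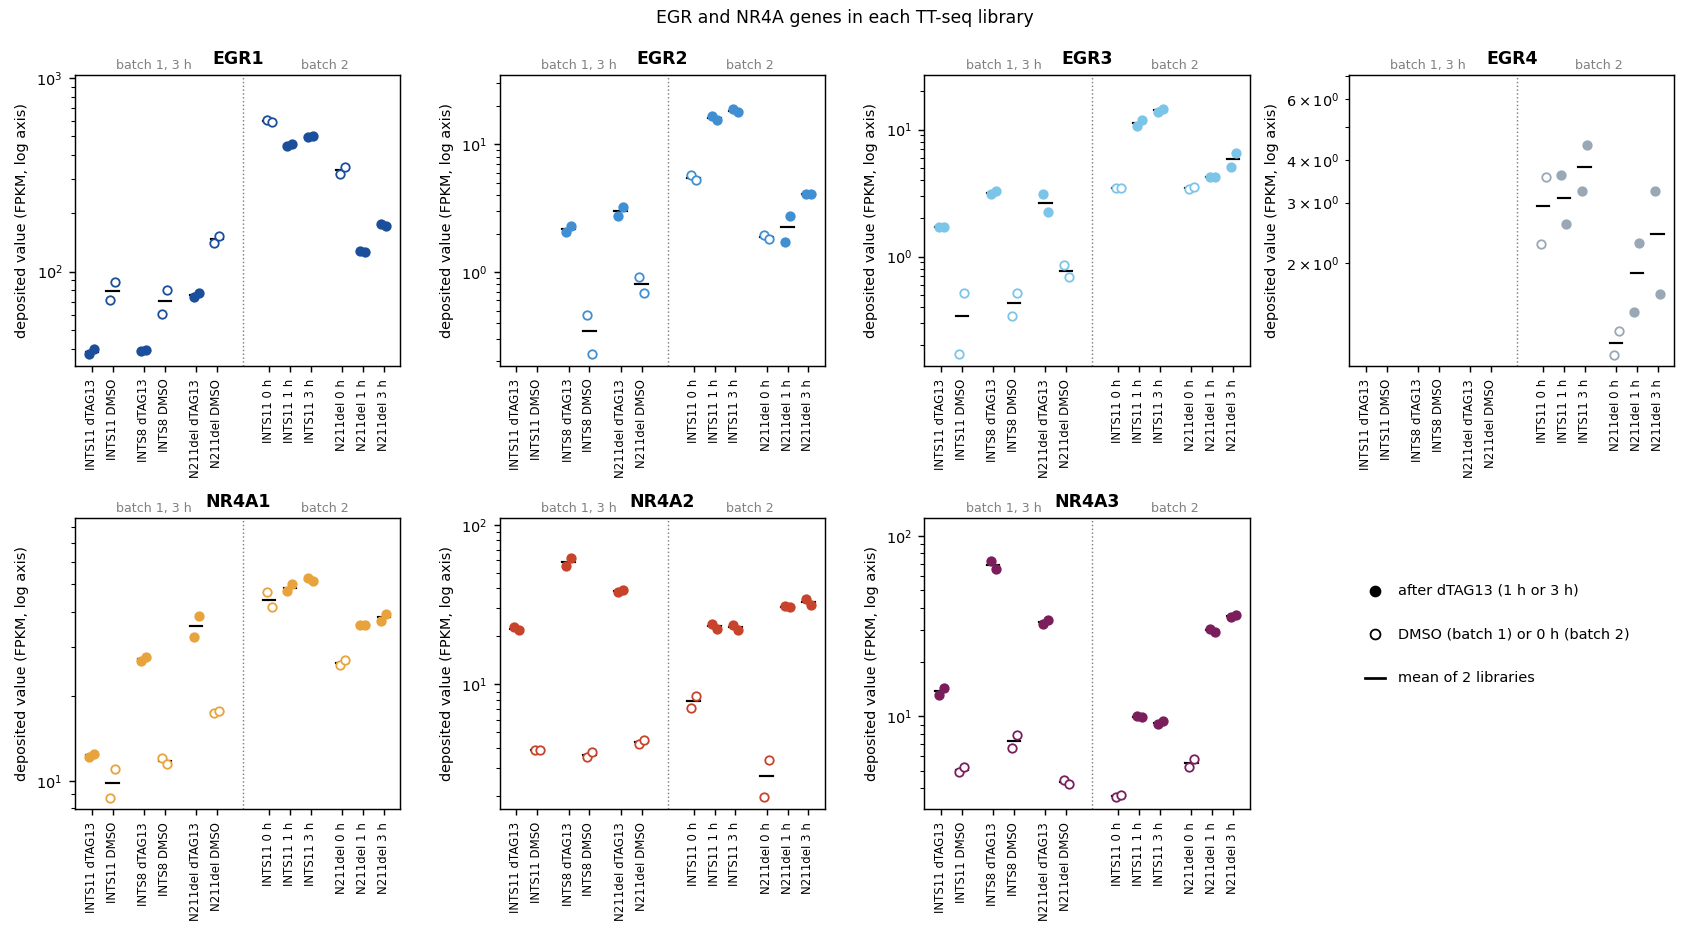
Deposited value per kilobase of each EGR and NR4A gene in every library (log axis, 1 panel per gene). Filled points are libraries after dTAG13, open points are DMSO (batch 1) or 0 h (batch 2) libraries, and bars are the mean of 2 libraries. In batch 1 the filled EGR1 points lie below the open ones in each line and the filled NR4A2 and NR4A3 points above them. The batch 1 positions of EGR4 and the INTS11 positions of EGR2 in batch 1 are empty because no value is listed.

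The balance between EGR1 and NR4A2 within a library shows both moves at once. EGR1 was 1.64 and 1.82 times NR4A2 in the treated INTS11 libraries, against 18.4 and 22.8 times in DMSO. It was 0.703 and 0.632 times NR4A2 in the treated INTS8 libraries, against 17.1 and 21.3 times in DMSO, so that NR4A2 was there the higher of the pair. The ratio in the N211del line was 1.95 and 1.98 after dTAG13, against 33.3 and 34.1 in DMSO. A ratio within a library does not depend on how libraries were scaled, and these are given as a description, since the pair was named for its opposite directions.

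Where the lines were compared directly at 3 h in batch 1, the NR4A genes differed and EGR1 did not pass the test. The response of NR4A2 was smaller in the INTS11 line than in the INTS8 line by 1.48 ± 0.12 on the log2 scale (INTS11 minus INTS8 −1.48, limma adjusted p = 4.9e-09), and that of NR4A3 by 1.80 ± 0.13 (difference −1.80, limma adjusted p = 6.4e-10). NR4A1 showed the same order, with a difference of −0.86 ± 0.14 (limma adjusted p = 9.5e-05). Of the 5 members tested, 3 differed in this comparison, each lower in the INTS11 line, and 25.4% of all genes were called (6.0% higher, 19.4% lower). For EGR1 the difference was −0.21 ± 0.19 (95% interval −0.64 to 0.21; limma adjusted p = 0.47). Without INTS8 DMSO replicate 2 it was −0.42 and called (limma adjusted p = 0.0166). EGR3 had a difference of −0.50 ± 0.50 (interval −1.66 to 0.67), which became −1.09 and called without INTS11 DMSO replicate 1 (limma adjusted p = 0.0021) and 0.09 without INTS11 DMSO replicate 2.

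Between the N211del and INTS8 lines only NR4A2 of the 5 members passed the test, with a difference of −0.86 ± 0.12 (N211del minus INTS8, limma adjusted p = 0.0002) where 11.1% of all genes were called (9.04% higher, 2.01% lower). NR4A3 differed by −0.31 ± 0.13 (limma adjusted p = 0.11), and by −0.47 and called with each library centred on its median (adjusted p = 0.0268). EGR1 differed by −0.13 ± 0.19 (95% interval −0.55 to 0.30), NR4A1 by −0.19 ± 0.14 (−0.48 to 0.10) and EGR3 by −0.998 ± 0.50 (−2.16 to 0.16). With only the libraries of that contrast in the fit, the same EGR3 difference was called (limma adjusted p = 0.00255). EGR2, in the fit with added genes (10.2% called, 8.32% higher), differed by −0.63 ± 0.33 (limma adjusted p = 0.2).

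Between the INTS11 and N211del lines 3 of the 5 members differed, all NR4A genes and all lower in the INTS11 line, where 48.5% of all genes were called (4.8% higher, 43.7% lower). The difference was −1.49 ± 0.13 for NR4A3 (limma adjusted p = 2.3e-08), −0.67 ± 0.14 for NR4A1 (adjusted p = 0.00086) and −0.62 ± 0.12 for NR4A2 (adjusted p = 0.00037). Centring each library on its median left −1.20, −0.38 and −0.32 for these genes, and NR4A2 was then not called (limma adjusted p = 0.0513). EGR1 differed by −0.08 ± 0.19 (95% interval −0.51 to 0.34) and EGR3 by 0.50 ± 0.50 (−0.66 to 1.66). EGR3 reached 1.09 and was called without INTS11 DMSO replicate 2 (limma adjusted p = 0.0017).

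**Figure D2:**
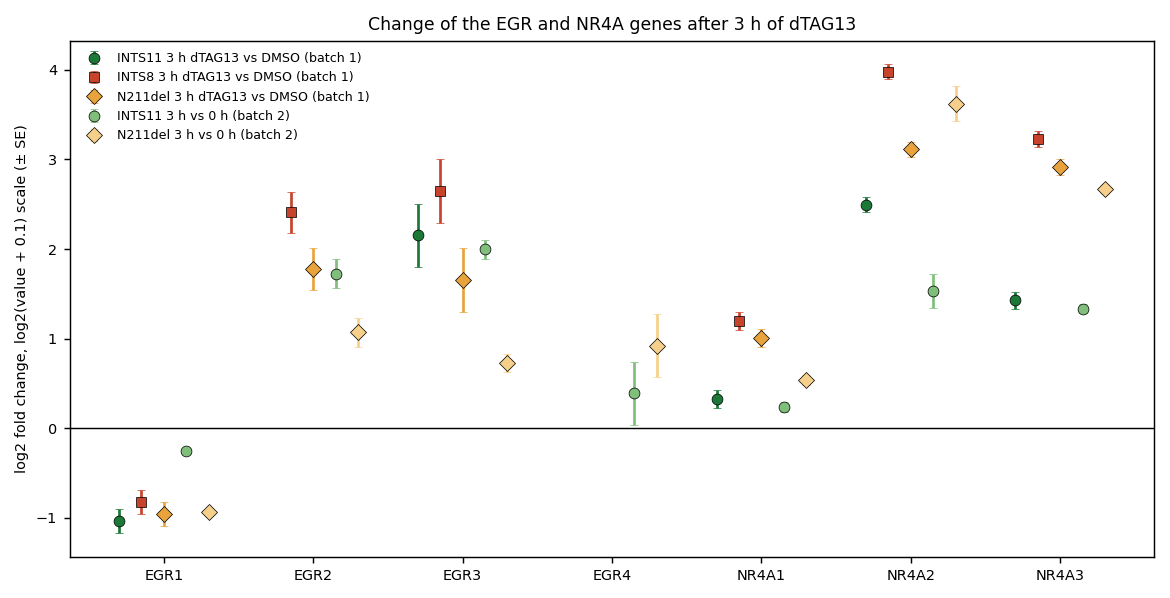
Log2 fold change of each member after 3 h of dTAG13 against DMSO (batch 1, dark symbols) or against 0 h (batch 2, light symbols), with bars of 1 SE. All 5 EGR1 points lie below 0, between −1.04 and −0.25, and the NR4A2 points between 1.53 and 3.98. EGR2 of the INTS11 line in batch 1 and EGR4 of batch 1 have no value, and the EGR2 points of batch 1 come from the fit with added genes.

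In the time course of batch 2, both lines had EGR1 lower and NR4A2 and NR4A3 higher by 1 h. By 1 h in the INTS11 line, 4 of the 7 members rose and 1 fell (55.9% of 6950 genes called, 46.0% higher and 9.86% lower), and by 3 h 5 rose and 1 fell (55.4% called, 36.0% higher and 19.3% lower). Of the same 7, 4 rose and 1 fell by 1 h in the N211del line (71.0% called, 66.0% higher and 4.92% lower), and 6 rose and 1 fell by 3 h (63.5% called, 49.7% higher and 13.8% lower). The member that fell was EGR1 each time. Batch 1 and batch 2 were scaled apart, so tests were made within a batch. When both batches were fitted together, the mean EGR1 response of the INTS11 line at 3 h was −0.65 on the log2 scale, and EGR3 of the N211del line was 1.19 higher.

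EGR1 in the INTS11 line was at 605 and 590 at 0 h, 443 and 454 at 1 h, and 498 and 504 at 3 h. The N211del line had 321 and 346 at 0 h, 128 and 126 at 1 h, and 177 and 171 at 3 h. The pairs of libraries did not overlap between times in either line, and the lowest level was at 1 h in both. Against 0 h the log2 fold change in the INTS11 line was −0.41 ± 0.04 at 1 h (limma adjusted p = 1.9e-05) and −0.25 ± 0.04 at 3 h (adjusted p = 0.00038). The N211del value was −1.39 ± 0.04 at 1 h (limma adjusted p = 4.4e-09) and −0.94 ± 0.04 at 3 h (adjusted p = 3.8e-08). At 1 h in the N211del line EGR1 ranked 4 from the bottom of the 6950 genes, and NR4A2 ranked 4 from the top.

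Between 1 and 3 h EGR1 rose again in the N211del line, by 0.45 ± 0.04 (3 h against 1 h, limma adjusted p = 0.00013), while 37.2% of all genes were called, 2.2% higher and 35.0% lower. EGR2 (0.87 ± 0.16, limma adjusted p = 0.004), EGR3 (0.43 ± 0.10, adjusted p = 0.0097) and NR4A3 (0.25 ± 0.05, adjusted p = 0.0057) were higher too, which makes 4 of the 7 members. The EGR2 value was 0.54 without 1 h replicate 1 and the EGR3 value 0.25 without 3 h replicate 2, both still called. With agreeing pairs averaged the EGR2 and NR4A3 calls were lost (limma adjusted p = 0.0517 and 0.0639), and the EGR3 call was lost with only the libraries of the contrast and with voom (0.0646 and 0.146). EGR1 in the INTS11 line was the 1 member of 7 called, at 0.16 ± 0.04 (limma adjusted p = 0.026), where 15.6% of all genes were called, 0.475% higher and 15.1% lower. That call was lost without 1 h replicate 1 and without either 3 h replicate (limma adjusted p = 0.171, 0.092 and 0.159), and also with agreeing pairs averaged and with only the libraries of the contrast (0.206 and 0.0843). The median gene of the N211del line moved by −0.13 between these times, and that of the INTS11 line by −0.09.

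NR4A2 reached its later level by 1 h. In the N211del line it was at 1.96 and 3.37 at 0 h, 30.9 and 30.6 at 1 h, and 34.2 and 31.5 at 3 h. The INTS11 line had 7.15 and 8.49 at 0 h, 23.9 and 22.4 at 1 h, and 23.7 and 21.8 at 3 h. The 1 h and 3 h libraries overlapped in the INTS11 line and all lay above the 0 h libraries of their line. At 1 h NR4A2 was higher by 3.53 ± 0.19 (log2) in the N211del line and by 1.56 ± 0.19 in the INTS11 line (limma adjusted p = 3e-07 and 0.00014), and at 3 h 3.62 ± 0.19 and 1.53 ± 0.19 (adjusted p = 3e-07 and 0.00019). From 1 to 3 h the change in the N211del line was 0.09 ± 0.19 (95% interval −0.34 to 0.53), and that in the INTS11 line −0.03 ± 0.19 (−0.46 to 0.41).

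NR4A3 was at 5.27 and 5.82 at 0 h, 30.7 and 29.5 at 1 h, and 35.4 and 36.3 at 3 h in the N211del line. The INTS11 line had 3.55 and 3.67 at 0 h, 10.1 and 9.87 at 1 h, and 9.06 and 9.44 at 3 h. No pair overlapped another within a line. At 1 h NR4A3 was higher by 2.42 ± 0.05 (log2) in the N211del line and by 1.44 ± 0.05 in the INTS11 line (limma adjusted p = 1.4e-09 and 3.2e-07), and at 3 h 2.67 ± 0.05 and 1.33 ± 0.05 (adjusted p = 8.8e-10 and 5.8e-07).

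NR4A1 moved little. The N211del line had 25.8 and 26.8 at 0 h, 35.9 and 35.8 at 1 h, and 37.2 and 39.3 at 3 h. The INTS11 line had 46.8 and 41.5 at 0 h, 47.3 and 50.1 at 1 h, and 52.6 and 51.4 at 3 h, a gap from 0 h to 1 h smaller than the spread of the 0 h pair. The log2 fold change was 0.44 ± 0.06 at 1 h and 0.54 ± 0.06 at 3 h in the N211del line (limma adjusted p = 7.3e-05 and 2.6e-05). It was 0.14 ± 0.06 at 1 h and 0.24 ± 0.06 at 3 h in the INTS11 line (limma adjusted p = 0.058 and 0.0063). The median gene of the N211del line was itself higher by 0.31 at 1 h, and with libraries centred on their median NR4A1 was at 0.09 there and not called (limma adjusted p = 0.118). At 3 h it was 0.34 after centring, still called. Without 0 h replicate 1, NR4A1 of the INTS11 line at 1 h was 0.23 and called (limma adjusted p = 0.00643), and without 0 h replicate 2 it was 0.15 at 3 h, still called.

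By 1 h EGR2 and EGR3 had risen in the INTS11 line, while the N211del line had both higher at 3 h than at 1 h. EGR2 in the INTS11 line was at 5.76 and 5.22 at 0 h, 16.6 and 15.6 at 1 h, and 18.8 and 17.9 at 3 h, with log2 fold changes of 1.54 ± 0.16 and 1.72 ± 0.16 (limma adjusted p = 5.7e-05 and 3.6e-05). EGR3 in that line was at 3.49 and 3.44 at 0 h, 10.6 and 11.8 at 1 h, and 13.8 and 14.5 at 3 h, with log2 fold changes of 1.66 ± 0.10 and 1.995 ± 0.10 (limma adjusted p = 2.5e-06 and 1.2e-06). All treated libraries of the INTS11 line lay above the 0 h libraries for both genes.
EGR2 in the N211del line was at 1.94 and 1.83 at 0 h, 1.73 and 2.76 at 1 h, and 4.06 and 4.07 at 3 h. Its 1 h libraries lay on either side of the 0 h ones (log2 fold change 0.21 ± 0.16, limma adjusted p = 0.28), and at 3 h it was 1.07 ± 0.16 higher (adjusted p = 0.00034). Without 1 h replicate 1 the 1 h value was 0.53 and called (limma adjusted p = 0.000447), and without 1 h replicate 2 it was −0.12. EGR3 in the N211del line was at 3.39 and 3.53 at 0 h, 4.27 and 4.26 at 1 h, and 5.11 and 6.57 at 3 h. Its log2 fold change was 0.29 ± 0.10 at 1 h (limma adjusted p = 0.025) and 0.73 ± 0.10 at 3 h (adjusted p = 0.00016). The 1 h call was lost without any 1 of its 4 libraries (limma adjusted p = 0.0526 to 0.106) and with voom (adjusted p = 0.331), and its sign turned with libraries centred on their median (−0.06).

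EGR4, the least known member, stood at 4 to 20 units per library of the time course. The INTS11 line had 2.28 and 3.57 at 0 h, 3.60 and 2.60 at 1 h, and 3.24 and 4.40 at 3 h. The N211del line had 1.08 and 1.27 at 0 h, 1.44 and 2.29 at 1 h, and 3.24 and 1.62 at 3 h. The groups of the INTS11 line overlapped, and those of the N211del line overlapped at 1 h and 3 h. The log2 fold change at 3 h was 0.92 ± 0.35 in the N211del line (limma adjusted p = 0.043) and 0.39 ± 0.35 in the INTS11 line (adjusted p = 0.37). The N211del call was lost in 8 of 13 alternative settings, the replicate block among them. It was lost without either 0 h replicate or without 3 h replicate 1 (0.44), and the value was 1.40 without 3 h replicate 2.

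**Figure D3:**
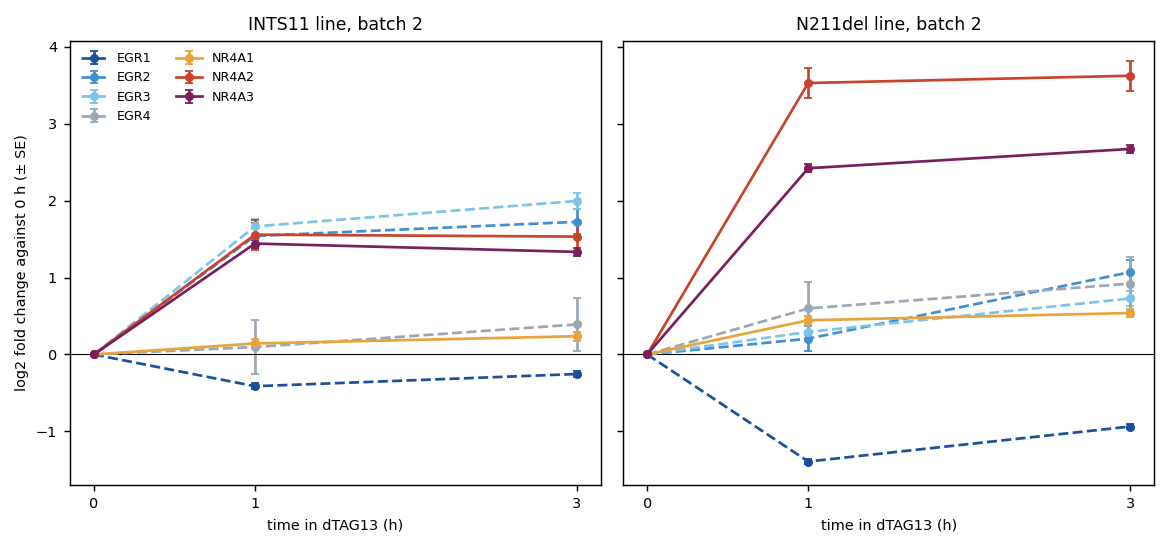
Log2 fold change against 0 h over 0, 1 and 3 h of dTAG13 in the INTS11 line (left) and the N211del line (right), with bars of 1 SE. Solid lines are NR4A genes and dashed lines EGR genes. NR4A2 and NR4A3 are near their 3 h values at 1 h in both lines, and EGR1 has its lowest point at 1 h, at −0.41 and −1.39.

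The 2 lines of the time course differed for 6 of the 7 members at each time, with 3 members higher and 3 lower in the INTS11 line, where 48.6% of all genes were called at 1 h (9.24% higher, 39.3% lower) and 50.9% at 3 h (15.2% higher, 35.8% lower). EGR1, EGR2 and EGR3 differed in 1 direction and the NR4A genes in the other. At 1 h the INTS11 minus N211del difference was 0.98 ± 0.05 for EGR1 (limma adjusted p = 2.7e-06), 1.33 ± 0.23 for EGR2 (adjusted p = 0.0013) and 1.37 ± 0.14 for EGR3 (adjusted p = 6.8e-05). It was −1.97 ± 0.27 for NR4A2 (limma adjusted p = 0.00037), −0.98 ± 0.07 for NR4A3 (adjusted p = 1.1e-05) and −0.30 ± 0.08 for NR4A1 (adjusted p = 0.012). At 3 h the difference was 0.68 ± 0.05 for EGR1, 0.65 ± 0.23 for EGR2, 1.27 ± 0.14 for EGR3, −2.09 ± 0.27 for NR4A2, −1.34 ± 0.07 for NR4A3 and −0.30 ± 0.08 for NR4A1 (limma adjusted p = 1e-05, 0.04, 8.9e-05, 0.00024, 1.6e-06 and 0.012). The EGR2 call at 3 h was lost without any 1 of its 8 libraries (limma adjusted p = 0.0569 to 0.107), with agreeing pairs averaged, with voom, with the replicate block and with a pseudocount of 0.01 (0.200, 0.183, 0.0524 and 0.0524), and both NR4A1 calls were lost with libraries centred on their median (−0.11 and −0.16). EGR4 differed by −0.50 ± 0.49 at 1 h and −0.53 ± 0.49 at 3 h, neither called. For EGR1, the difference of 0.68 at 3 h stands beside −0.08 ± 0.19 for the same lines at 3 h in batch 1, where the controls were DMSO and not 0 h.

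The starting levels differed between lines, and for EGR1 they differed in opposite ways in the 2 batches. In DMSO EGR1 was higher in the N211del line than in the INTS11 line by 0.89 ± 0.13 (limma adjusted p = 0.00027) and than in the INTS8 line by 1.08 ± 0.13 (adjusted p = 7.9e-05), while at 0 h it was lower in the N211del line than in the INTS11 line (log2 difference −0.84 ± 0.04, limma adjusted p = 8e-08). NR4A1 did the same, at 0.84 ± 0.10 in DMSO and −0.74 ± 0.06 at 0 h (limma adjusted p = 5e-07 and 2.5e-06). At 0 h the N211del line was also lower than the INTS11 line for NR4A2 (−1.56 ± 0.19), EGR2 (−1.49 ± 0.16) and EGR4 (−1.22 ± 0.35), and higher for NR4A3 (0.60 ± 0.05), with limma adjusted p = 6.9e-05, 3e-05, 0.011 and 4.9e-06. EGR4 lost that call without INTS11 0 h replicate 2 or N211del 0 h replicate 1 (limma adjusted p = 0.0862 and 0.0556). For EGR3 the difference there was −0.00 ± 0.10 (95% interval −0.23 to 0.22). Of the 7 members 1 was higher and 5 lower at 0 h, where 70.0% of all genes were called (38.4% higher, 31.6% lower). Other immediate early genes changed order between the batches too. Of 35 tested, 28 were higher and 0 lower in N211del than in INTS11 in DMSO (median log2 difference 0.67). Of all genes 19.7% were higher and 45.9% lower there. At 0 h 12 of the 35 were higher and 21 lower (median −0.48).

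In DMSO the N211del line was higher than the INTS11 line for 3 of 5 members and lower for 1 (65.5% of genes called, 19.7% higher and 45.9% lower). It was higher than the INTS8 line for 3 and lower for 1 (63.7% called, 5.03% higher and 58.7% lower). The INTS8 line was higher than the INTS11 line for 2 of 5 (30.7% called, 26.8% higher and 3.91% lower). Against the INTS8 line, N211del was higher for NR4A1 (0.58 ± 0.10, limma adjusted p = 4.8e-05) and NR4A2 (0.26 ± 0.08, adjusted p = 0.011) and lower for NR4A3 (−0.73 ± 0.09, adjusted p = 1.2e-06). The median gene of that contrast was itself at −0.30. Over the alternative settings NR4A1 ran from 0.54 to 0.89, NR4A2 from 0.21 to 0.57 and NR4A3 from −0.85 to −0.42. The NR4A2 call was lost without INTS8 DMSO replicate 1 (0.21) or N211del DMSO replicate 2 (0.22), with agreeing pairs averaged and with voom (limma adjusted p = 0.190 and 0.347). Against the INTS11 line, N211del was higher for EGR3 (1.09 ± 0.36, limma adjusted p = 0.026) and lower for NR4A3 (−0.22 ± 0.09, adjusted p = 0.035). The EGR3 value was 0.50 without INTS11 DMSO replicate 1 and 1.68 without INTS11 DMSO replicate 2, and it was not called without either N211del DMSO library (0.94 and 1.23). The NR4A3 call was lost without INTS11 DMSO replicate 2 or either N211del DMSO library (−0.18, −0.26 and −0.19), with agreeing pairs averaged (−0.22), with a pseudocount of 1 (−0.19) and with libraries centred on their median, where the value was −0.014 (limma adjusted p = 0.881). The INTS8 line was higher than the INTS11 line for NR4A3 (0.51 ± 0.09, limma adjusted p = 0.00015) and NR4A1 (0.26 ± 0.10, adjusted p = 0.049). The NR4A1 call was lost without INTS11 DMSO replicate 1 (0.09) or either INTS8 DMSO library, and with agreeing pairs averaged, a pseudocount of 1, libraries centred, only the libraries of the contrast or voom (limma adjusted p = 0.0536 to 0.186), and the value was 0.44 without INTS11 DMSO replicate 2. EGR1 between these lines was at −0.19 ± 0.13, and at −0.40 and called without INTS8 DMSO replicate 2, while EGR3 was at 0.35 ± 0.36, and at 0.94 and called without INTS11 DMSO replicate 2.

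The order of EGR1 levels in batch 1 ran from N211del in DMSO (147 ± 8.32, mean ± SD, n = 2 here and below) over INTS11 in DMSO (79.8 ± 11.8), N211del after dTAG13 (75.7 ± 2.40) and INTS8 in DMSO (70.1 ± 14.1) to INTS8 after dTAG13 (39.1 ± 0.185) and INTS11 after dTAG13 (38.6 ± 1.66). The middle 3 groups did not differ beyond their spread, nor did the 2 lowest. In batch 2 the order was INTS11 at 0 h (598 ± 10.45), 3 h (501 ± 4.61) and 1 h (449 ± 7.51), then N211del at 0 h (334 ± 17.5), 3 h (174 ± 3.88) and 1 h (127 ± 1.59), with no overlap between neighbours. By rank within its library EGR1 stood on average at percentile 95.8 of listed genes in INTS11 DMSO and 99.8 at INTS11 0 h, so its place among the genes was higher in batch 2 as well. NR4A2 in batch 1 ran from INTS8 after dTAG13 (58.7 ± 4.70) over N211del (38.5 ± 0.855) and INTS11 (22.3 ± 0.599) after dTAG13 to the 3 DMSO groups, N211del at 4.36 ± 0.171, INTS11 at 3.87 and INTS8 at 3.63 ± 0.171. Of these 3 only N211del and INTS8 differed by the test. NR4A2 stood on average at percentile 92.1 of the listed genes in the treated INTS8 libraries, against 16.5 in DMSO, and NR4A3 at 94.0 against 25.7. In batch 2 N211del at 3 h (32.9 ± 1.97) and 1 h (30.7 ± 0.177) led, INTS11 at 1 h (23.1 ± 1.06) and 3 h (22.7 ± 1.38) overlapped, and INTS11 at 0 h (7.82 ± 0.947) and N211del at 0 h (2.67 ± 0.998) closed the order.

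Set against all tested genes, NR4A2 and EGR1 lay toward the ends of the range in batch 1. Other members lay nearer its middle at 1 h in batch 2, with NR4A1 and EGR4 at percentiles 48.2 and 41.0 in the INTS11 line and EGR2, EGR3 and NR4A1 at percentiles 37.2, 47.8 and 62.8 in the N211del line. In the 3 lines of batch 1 the median log2 fold change over all genes was −0.03 (INTS11), 0.06 (INTS8) and 0.21 (N211del), and 1 gene in 100 lay above 1.48, 2.46 and 2.14. NR4A2 lay above that mark in each line, and EGR1 lay below the 1st percentile (−0.60 and −0.72) in the INTS11 and N211del lines and above it in the INTS8 line (−0.98). Called genes were mostly higher, at 62.3% in the INTS8 line and 87.2% in the N211del line, which became 45.7% and 43.3% with libraries centred on their median. In batch 2 the share fell to 48.9% after centring, against 82.4% uncentred, in the INTS11 line at 1 h, and to 52.3% against 65.1% at 3 h. It fell to 44.95% in the N211del line against 93.1% at 1 h and to 46.9% against 78.3% at 3 h. Between 1 and 3 h the INTS11 line had 3.05% of its called genes higher, and 56.25% after centring, while the N211del line had 5.92%, and 60.2% after centring. For the differences between lines at 3 h in batch 1 the share was 23.6% and 55.0% after centring (INTS11 minus INTS8), 81.8% and 38.0% (N211del minus INTS8), and 9.91% and 55.5% (INTS11 minus N211del). For INTS11 minus N211del in batch 2 it was 19.0% and 53.6% at 1 h and 29.7% and 53.2% at 3 h. In DMSO it was 87.3% and 53.6% (INTS8 over INTS11), 7.90% and 49.9% (N211del over INTS8), and 30.01% and 54.0% (N211del over INTS11). EGR1 stayed lower and NR4A2 and NR4A3 higher after centring in the 3 contrasts of batch 1 and the 4 against 0 h of batch 2.

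**Figure D4:**
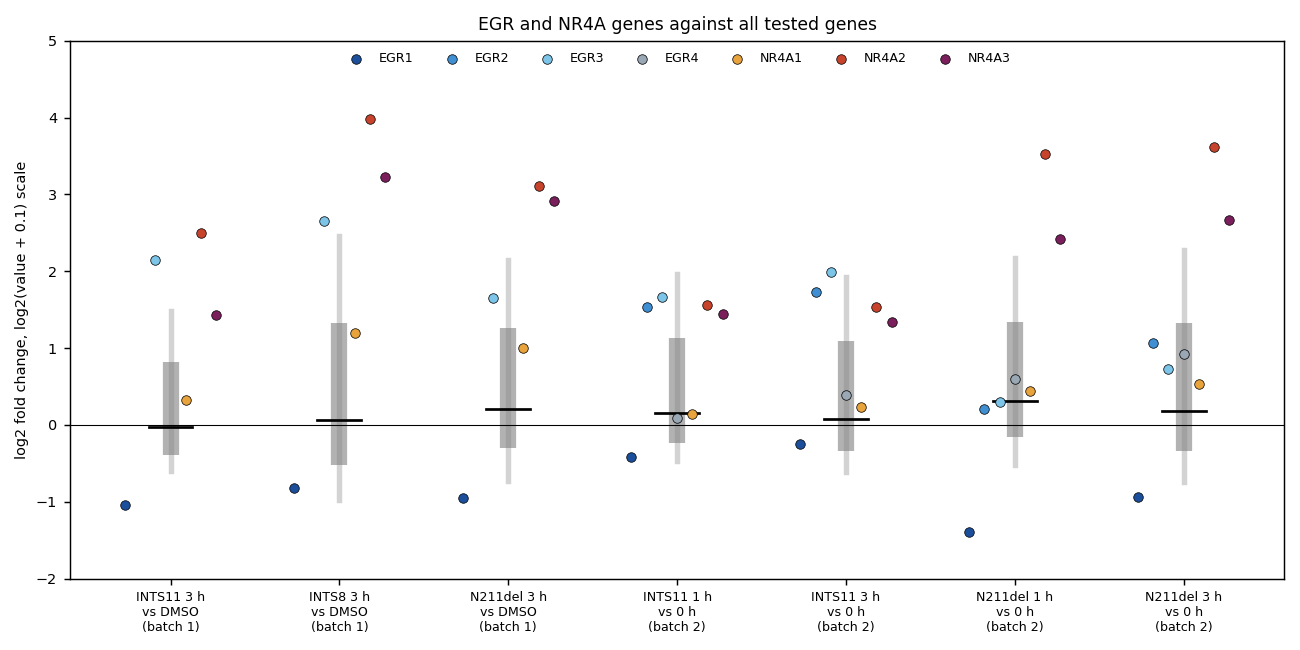
Log2 fold change of each member (points) beside all tested genes in 7 contrasts. The black bar is the median gene, the dark box spans the 5th to 95th percentile and the light bar the 1st to 99th percentile. NR4A2 lies above the light bar in the 3 contrasts of batch 1 and in both N211del contrasts of batch 2, and EGR1 lies below it in 4 of the 7 contrasts. EGR2 and EGR4 are not drawn for batch 1.

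Of 54 other immediate early genes listed, 35 were tested, and 13 were higher and 5 lower after 3 h of dTAG13 in the INTS11 line, 24 and 2 in the INTS8 line, and 23 and 2 in the N211del line, with medians of 0.15, 0.63 and 0.52. The shares of all genes called higher in these lines were 19.4%, 34.6% and 48.5%, and those called lower 19.8%, 21.0% and 7.1%. FOSB, an AP-1 subunit, led the list in each line by 1.48, 5.00 and 3.49 on the log2 scale in the INTS11, INTS8 and N211del lines (limma adjusted p = 1e-08, 3.1e-18 and 2.1e-15). In the INTS8 line FOSB was at 41.1 and 36.1 after dTAG13, against 1.253 and 0.974 in DMSO. FOS was 2.96 higher in the INTS8 line, CCN2, a matricellular YAP target, 2.28 higher in the N211del line and IER5L 0.89 higher in the INTS11 line. In the time course of the INTS11 line 17 of the 35 rose and 5 fell by 1 h, and 21 rose and 6 fell by 3 h. Of all genes 46.0% and 36.0% were called higher at these times, and 9.86% and 19.3% lower. In the time course of the N211del line 22 rose and 8 fell by 1 h, and 23 rose and 4 fell by 3 h. Of all genes 66.0% and 49.7% were called higher there, and 4.92% and 13.8% lower.

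Genes that act on EGR1 were called in both directions, and their counts stand beside the shares of all genes. Of 32 EGR1 regulators and partners, such as ERK pathway kinases, serum response factor and the NAB corepressors, 21 were tested in batch 1. At 3 h 4 rose and 5 fell in the INTS11 line, 10 and 3 in the INTS8 line, and 11 and 1 in the N211del line, with medians of −0.01, 0.07 and 0.29. Of all 6579 genes 19.4%, 34.6% and 48.5% were called higher in these lines, and 19.8%, 21.0% and 7.1% lower. DUSP4, a phosphatase that turns off ERK, was higher by 0.45, 1.16 and 1.38 in the INTS11, INTS8 and N211del lines (limma adjusted p = 0.00058, 3.8e-10 and 2.3e-11), and MAP2K6, a kinase of the p38 pathway, by 0.57, 0.77 and 0.86. Of 21 textbook EGR1 targets 10 were tested, and 4 rose and 3 fell in the INTS11 line, 5 and 3 in the INTS8 line, and 6 and 0 in the N211del line, with medians of 0.16, 0.30 and 0.26. ATF3, a stress-induced factor, was higher by 0.58, 2.27 and 1.40, and the growth factor IGF2 by 0.54, 1.71 and 1.81. Of the 22 regulators tested in the time course, 10 rose and 1 fell by 1 h in the INTS11 line, and 8 rose and 5 fell by 3 h. By 1 h 15 rose and 1 fell in the N211del line, and by 3 h 11 rose and 5 fell. Of the 11 targets tested there, 6 rose and 1 fell at either time in the INTS11 line. The N211del line had 7 that rose and 1 that fell by 1 h, and 7 that rose and 2 that fell by 3 h. Beside these time-course counts, 46.0% and 36.0% of all genes were called higher in the INTS11 line by 1 h and 3 h, and 9.86% and 19.3% lower. The N211del shares were 66.0% and 49.7% higher, and 4.92% and 13.8% lower.

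Of 30 NR4A regulators and partners, most of them parts of cAMP signalling, 14 were tested. At 3 h in batch 1, 3 rose and 4 fell in the INTS11 line, 7 and 2 in the INTS8 line, and 9 and 1 in the N211del line. The medians were −0.07, 0.30 and 0.43. Of all genes 19.4%, 34.6% and 48.5% were called higher in these lines, and 19.8%, 21.0% and 7.1% lower. PDE4B, which breaks down cAMP, was higher by 0.68, 1.43 and 2.21 in the INTS11, INTS8 and N211del lines (limma adjusted p = 0.0047, 5.8e-07 and 6.5e-10). PRKAR2B, a regulatory subunit of protein kinase A, was higher by 0.54, 1.55 and 1.69. In the time course of the INTS11 line 6 of the 14 rose and 2 fell by 1 h, and 4 rose and 5 fell by 3 h. In that of the N211del line 10 rose and 1 fell by 1 h, and 8 rose and 1 fell by 3 h. Of all genes 46.0% and 36.0% were called higher in the INTS11 line by 1 h and 3 h, and 9.86% and 19.3% lower. The N211del shares were 66.0% and 49.7% higher, and 4.92% and 13.8% lower. Of 8 textbook NR4A2 targets, which act in dopamine neurons, 0 were tested. None was both listed in all libraries of a batch and above the filter. The lists share genes such as ATF3, and each count is to be read against the shares of all genes called above.

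The genes most like each member were found by Pearson r over the 12 group means of log2(value + 0.1), each batch centred on its mean, among 6268 genes. These r are descriptions over points that share lines, batches and scaling. NR4A3 was most like NUAK1, a kinase of the AMPK family (r = 0.99), and ARHGAP24, SLC41A1 and IRX5 were also among its top 5. NR4A2 was most like TENT5A (r = 0.98), the prostaglandin E receptor PTGER4, TSHZ1, CAV1 and RPP25. EGR1 was most like KLF6, a zinc finger factor (r = 0.93), then NIBAN2, ZBTB45, INF2 and ACTN4. NR4A1 was most like TRNP1 (r = 0.95), ADAMTSL5, CRABP2, HES7 and SMOX, and EGR3 most like CYP26B1 (r = 0.94), SLC16A13, CCDC114, NNMT and NFATC4. Over the 24 libraries, centred on line and batch, the top 5 kept 1 gene for EGR1, 2 for EGR3, 0 for NR4A1, 1 for NR4A2 and 0 for NR4A3. Among the members r was 0.88 between NR4A2 and NR4A3 over the 12 group means, and −0.52 between EGR1 and NR4A2. Over the 24 libraries, centred on line and batch, these were 0.99 and −0.93. That centring leaves the changes within a line, for which EGR1 and NR4A2 were named as opposite, so the −0.93 is a description only.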

How the data were processed

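TT-seq was made from 24 libraries of 3 DLD1 lines, 12 groups of 2, grouped by line, treatment and time as the labels give them. The deposited values are FPKM per the file headers. They came out as whole-number units divided by a gene length, with no library factor in batch 1 and 1 factor per library in batch 2 (0.565 to 0.753), so they were used as signal per kilobase; no source used here says what a unit counts. All batch 1 values (100%) were whole within 0.02 units, and 98.1% to 99.6% of low values in batch 2. The submitters' processing notes name STAR 2.7.5c and DESeq2 1.26.0 beside Trim Galore 0.6.6, Picard 2.23.3 and SAMtools 1.9, with human and mouse builds, and give no role or order. A median gene held 430 to 579 units in a library of batch 1 and 574 to 777 in batch 2, and counting noise limits genes of few units.

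Each batch was fitted apart with limma 3.58.1 (R 4.3.3) on log2(value + 0.1), with 1 mean per group, trended and robust empirical Bayes and two-sided tests, over genes with a mean of at least 0.1 (6579 and 6950). P-values were adjusted by Benjamini-Hochberg over all tested genes of a contrast, and called below 0.05. Differences between lines are interaction contrasts. Tables were made with numpy 2.4.6, pandas 2.3.3 and scipy 1.17.1, and plots with matplotlib 3.10.9. The fit was tested on simulated data. Alternatives were pseudocounts of 0.01 and 1, other filters, libraries centred on their median, a replicate block, fewer libraries in the fit, each library left out, agreeing pairs averaged and both batches in 1 fit. The fit with genes added for EGR2 and limma's voom on the whole-number units were chosen after seeing the data.

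All 7 genes with the symbols EGR1 to EGR4 and NR4A1 to NR4A3 are described. Of each list the 2 called members with the largest fold change in each 3 h contrast of batch 1 are named, and the 5 genes most like each member, except 1 that is not reported here. The members and lists were chosen with earlier results of these data known. Of 7223 symbols 7169 matched the symbol table.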

Additional observations from a re-analysis of the deposited data

Results flagged for a closer look

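Responses were compared between lines in 29 tests over the members, and 19 passed the limma test at an adjusted p under 0.05, which is what brings them here. Of all genes, 25.4% were called for INTS11 minus INTS8 and 11.1% for N211del minus INTS8. For INTS11 minus N211del the share was 48.5% in batch 1, and 48.6% at 1 h and 50.9% at 3 h in batch 2. At 3 h in batch 1 the INTS11 minus INTS8 difference in log2 response was −0.86 for NR4A1, −1.48 for NR4A2 and −1.80 for NR4A3. The N211del minus INTS8 difference was −0.86 for NR4A2. The INTS11 minus N211del difference was −0.67 for NR4A1, −0.62 for NR4A2 and −1.49 for NR4A3. This last call of NR4A2 was lost with libraries centred on their median (−0.32).

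In batch 2 the INTS11 minus N211del difference at 1 h was 0.98 for EGR1, 1.33 for EGR2 and 1.37 for EGR3, and −0.30 for NR4A1, −1.97 for NR4A2 and −0.98 for NR4A3. At 3 h it was 0.68 for EGR1, 0.65 for EGR2 and 1.27 for EGR3, and −0.30 for NR4A1, −2.09 for NR4A2 and −1.34 for NR4A3. Each of these differences subtracts the 0 h levels, which differed between the lines for EGR1, EGR2, NR4A1, NR4A2 and NR4A3. NR4A2 was at 7.15 and 8.49 at 0 h in the INTS11 line, against 1.96 and 3.37 in the N211del line. At 1 h it was at 23.9 and 22.4, against 30.9 and 30.6. Whether a response depends on its starting level was not tested. In batch 2 the EGR2 call at 3 h was lost in 12 of 17 alternative settings, and both NR4A1 calls were lost with libraries centred on their median.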

How the results depend on the processing

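For EGR1 and NR4A2, 496 of the recomputed values kept their direction and side of the threshold, 10 lost the call, 3 gained one and 7 changed sign. For the other members these numbers were 937, 56, 17 and 14. The values below are log2 fold changes or differences, and the cause of each change was not tested, other than that leaving libraries out or averaging them leaves fewer samples. EGR1 from 1 to 3 h in the INTS11 line lost its call with only the libraries of the contrast (0.16), with agreeing pairs averaged (0.16) and in 3 of 4 fits without 1 library (0.14 to 0.17; 0.18 in the fit that kept it). With a library left out, the EGR1 difference ranged from −0.42 to −0.0074 for INTS11 minus INTS8, from −0.33 to 0.078 for N211del minus INTS8, from −0.24 to 0.067 for INTS11 minus N211del at 3 h in batch 1 (0.21 with libraries centred) and from −0.40 to 0.013 for INTS8 against INTS11 in DMSO. NR4A2 from 1 to 3 h in the INTS11 line was 0.075 with libraries centred and −0.087 to 0.036 with a library left out. Centring gave NR4A2 −0.32 for INTS11 minus N211del in batch 1, no longer called, and 0.38 for N211del against INTS11 in DMSO, then called. NR4A2 for N211del against INTS8 in DMSO was not called with pairs averaged (0.26), with voom (0.26) or in 2 of 4 fits without 1 library (0.21 to 0.30).

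Among the others, centring turned the sign of EGR2 (−0.14) and EGR3 (−0.056) at 1 h in the N211del line and of EGR4 (−0.058) and NR4A1 (−0.011) at 1 h in the INTS11 line, and a pseudocount of 1 that of EGR3 for INTS11 minus N211del in batch 1 (−0.010). With a library left out, EGR2 at 1 h in the N211del line ranged from −0.12 to 0.53, EGR3 from −1.09 to 0.093 for INTS11 minus INTS8, from −0.089 to 1.09 for INTS11 minus N211del in batch 1, from −0.24 to 0.94 for INTS8 against INTS11 in DMSO and from −0.032 to 0.027 for N211del against INTS11 at 0 h. EGR4 ranged from −0.22 to 0.41 at 1 h in the INTS11 line and from −0.15 to 0.80 from 1 to 3 h in the N211del line.

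Same-numbered libraries did not deviate together (r from −0.12 to 0.11 in batch 1 and from −0.10 to 0.07 in batch 2). These r cannot decide whether the numbers pair them, because many replicate differences were no larger than sampling noise. With the replicate block EGR1 at 3 h in the INTS11 line of batch 1 was −1.04 and NR4A2 2.497. The block kept every call of EGR1 and NR4A2, ended those of EGR2 for INTS11 minus N211del at 3 h in batch 2 and EGR4 at 3 h in the N211del line, and added EGR3 from 1 to 3 h in the INTS11 line.

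Counts of called genes moved by over 1.5 times with pairs averaged, to 1374 against 2575 for INTS11 at 3 h in batch 1, 2265 against 3847 at 3 h in batch 2, 0 against 1083 from 1 to 3 h, 1011 against 2583 for N211del from 1 to 3 h, 894 against 1673 (INTS11 minus INTS8), 72 against 727 (N211del minus INTS8), 1336 against 3190 and 2242 against 3540 (INTS11 minus N211del at 3 h in batches 1 and 2), and 1228 against 2019 and 2711 against 4190 (INTS8 against INTS11 and N211del against INTS8 in DMSO). Both batches in 1 fit gave 3950 against 2575. From 1 to 3 h centring gave 192 against 1083 and 1333 against 2583, the libraries of the contrast alone 1 against 1083 and voom 2151 against 1083, and voom gave 1367 against 727 for N211del minus INTS8. Leaving out a library gave as few as 1686 for INTS11 at 3 h in batch 1, 1 to 949 and 1391 to 1764 from 1 to 3 h in the INTS11 and N211del lines, and 181 to 2522 for N211del minus INTS8.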
